A study of Mus musculus with 40 samples.

Results

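The luminal and basal epithelial cells of the growing mouse mammary gland were compared in 4 polyA RNA-seq libraries, 2 of luminal and 2 of basal cells, out of the 40 libraries of the series. The 4 libraries were taken as the luminal and basal columns of the pubertal count table, so no measured value chose them. All mice were wildtype FVB/N females. The pubertal mice were 34 to 36 days old, and each pubertal library came from a pool of 4 mice drawn from 3 litters that were mixed before sorting. Replicate 1 of both lineages came from the pool of day 34 and replicate 2 from the pool of day 35. The 16 luminal and basal libraries of adult wildtype FVB/N females of 14 to 16 weeks served as the comparison, with 2 libraries of each lineage in proestrus, estrus, metestrus and diestrus and 2 or 3 mice per pool. Cells of the 3rd and 4th mammary glands were sorted on EpCAM and CD49f after removal of cells stained for CD45, CD31 or Ter119. Luminal cells were the EpCAM-high, CD49f-medium gate and basal cells the EpCAM-medium, CD49f-high gate, so the transcripts of these sort proteins are no finding here. The counts assigned to genes were 19033586 and 12911831 in the pubertal luminal libraries and 17007978 and 18314607 in the pubertal basal libraries. The pubertal and the adult libraries were sequenced in separate runs, so age and run cannot be told apart where a single lineage is compared between ages.

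The mammary duct has an inner luminal layer, which holds hormone-sensing cells and cells that can turn to milk secretion, and an outer basal layer of contractile myoepithelial cells that rests on the basement membrane. During puberty the ducts grow into the fat pad from terminal end buds under the influence of ovarian hormones and growth hormone. Luminal cells are known for simple keratins, tight junctions and receptors for steroid hormones, and basal cells for keratins 5 and 14, the transcription factor p63, smooth muscle proteins and the deposition of laminin and type IV collagen. In bulk populations fewer cells of a type and less RNA per cell cannot be told apart.

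The libraries matched their labels in the keratins that define the lineages. Krt18 (ENSMUSG00000023043, chr15:102028180-102032027, plus strand, GRCm38), which encodes a simple epithelial keratin, was at 4553 and 10269.6 CPM (counts scaled to 1e+06 per library, TMM-scaled over the 8 pubertal libraries) in luminal replicates 1 and 2 and at 90 and 114 CPM in the basal replicates. Krt14 (ENSMUSG00000045545, chr11:100203162-100207548, minus strand), the keratin of the basal layer, was at 10.9 and 26 CPM in luminal cells and 2752 and 3878 CPM in basal cells. The libraries of the lineages did not overlap for either gene. The log2 difference between luminal and basal cells was 6.18 ± 0.73 (SE, adjusted p = 0.00038) for Krt18 and -7.49 ± 1.21 (adjusted p = 0.0019) for Krt14. All 12 luminal markers were called as higher in luminal cells, where 18.3% of all tested genes were. All 12 basal markers were called as higher in basal cells, where 18.9% of all tested genes were. The median log2 differences of the marker lists were 6.2 and -8.39, against 0.0 over all 14263 genes tested. The lists were chosen with earlier results of these data known, so these counts are a description.

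**Figure D1:**
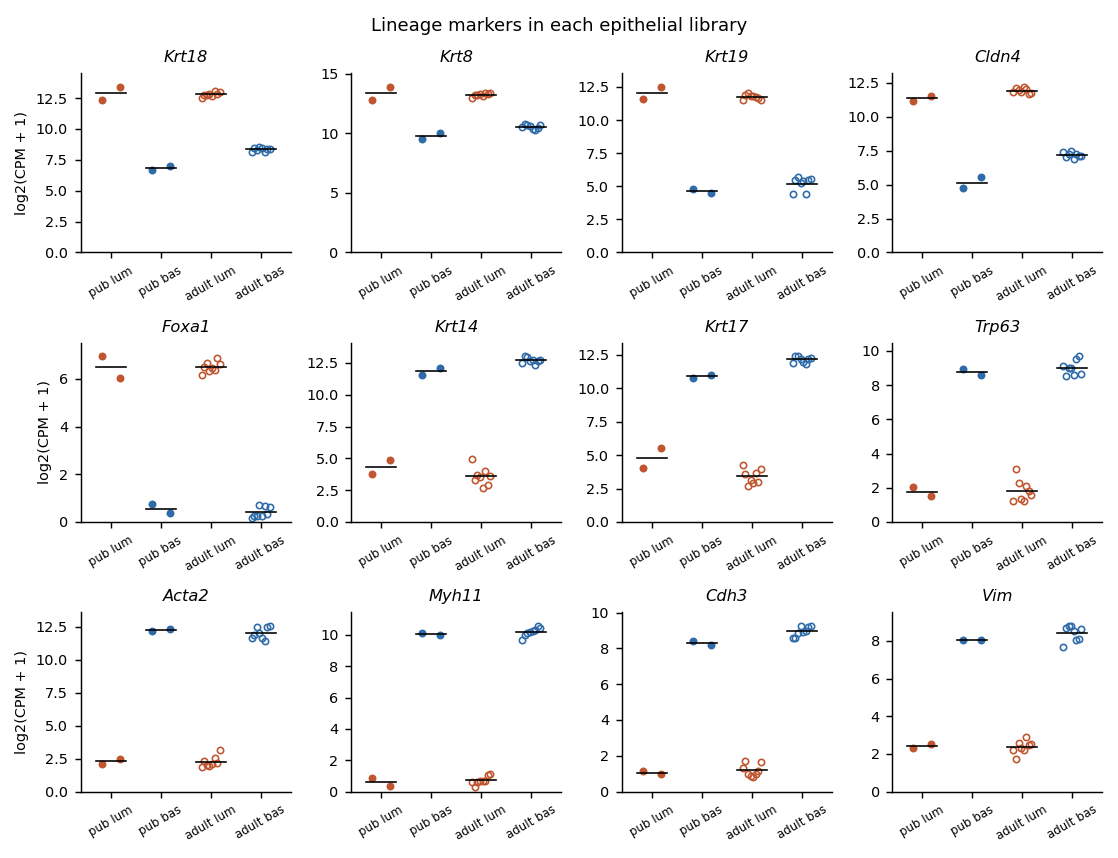
Levels of 12 lineage markers as log2(CPM + 1) on the scale shared by the 20 epithelial libraries (y axis) in luminal (orange) and basal (blue) libraries of puberty (filled) and adulthood (open), each point a library and each line the mean of the log values. The pubertal luminal points of Krt18 (5195 and 11046 CPM on this scale) and the pubertal basal points (99.8 and 127 CPM) lie far apart, and the pubertal basal points of Krt18 lie below all 8 adult basal libraries (280.2 to 379 CPM).

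Markers of other cell types were low. On the scale of the 20 epithelial libraries, the summed level of 8 leukocyte markers was 12.7 to 16.6 CPM in pubertal luminal and 9.81 to 10.5 CPM in pubertal basal cells, with 2 of the 8 markers, Cd3e and Ms4a1, without a read in either. The sum of 8 adipocyte markers was 3.33 to 4.18 CPM in luminal and 7.8 to 10.4 CPM in basal cells, and that of 8 endothelial and pericyte markers 11.9 to 20.8 and 17.7 to 23.6 CPM. The 8 fibroblast markers summed to 29.2 to 44.4 CPM in luminal and 431 to 437 CPM in basal cells. Most of the basal sum came from Fn1, which encodes fibronectin (298 and 293 CPM on the pubertal scale), while Col1a1 was at 2.6 and 1.6 CPM. In the pubertal fit 4 of the 8 fibroblast markers (Fn1, Thy1, Col1a2 and Dcn) were called as higher in basal cells. So were 4 of 8 endothelial and pericyte markers and 1 of 8 adipocyte markers (Plin4), where 18.9% of all genes were. No leukocyte marker was, while Cd68 of that list was called as higher in luminal cells, where 18.3% of all genes were. Leaving out single libraries gave 2 to 5, 2 to 8, 0 to 2 and 0 to 2 calls in these lists, and the block for pools of mice gave 8 endothelial, 2 adipocyte and 3 leukocyte calls. Luminal markers summed to 1253 to 1578 CPM in pubertal basal cells and basal markers to 46.4 to 95.6 CPM in pubertal luminal cells.

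The 2 pubertal luminal libraries differed from each other along transcript length. The log2 ratio of replicate 1 to replicate 2 correlated with summed exon length (Spearman's rho 0.62 across 12384 genes, a description since genes are not independent), and the median ratio ran from -0.79 in the shortest 10% of genes to 0.8 in the longest 10%. In the other 9 epithelial groups rho lay between -0.37 and 0.32. Krt8, Krt18 and Krt19 were all higher in luminal replicate 2. Which of the 2 libraries is the better measure was not tested, and results that depend on either are given with their values without it.

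**Figure D2:**
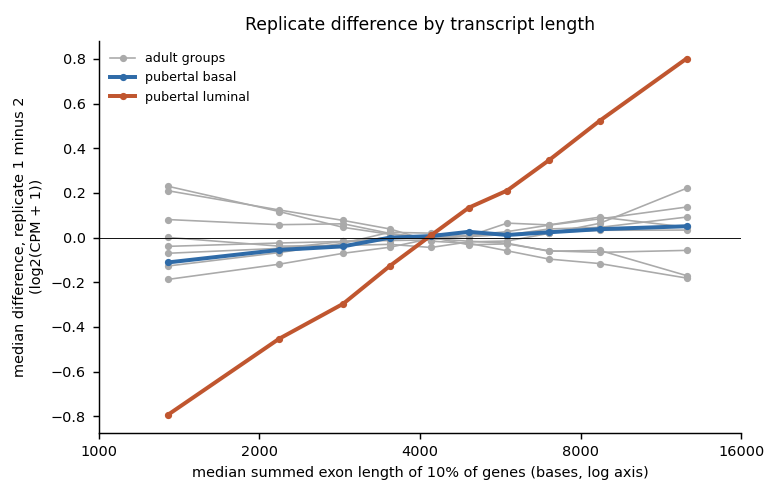
Median log2 difference between replicate 1 and replicate 2 (y axis) in each 10% of genes ranked by summed exon length in bases (x axis, log scale), with a line for each of the 10 epithelial groups. The line of the pubertal luminal libraries climbs from -0.79 to 0.8, while the lines of the other 9 groups stay between -0.19 and 0.23.

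Of 14263 genes tested in the pubertal libraries, 5309 (37.2%) differed between luminal and basal cells at an adjusted p under 0.05. A total of 2612 (18.3%) were higher in luminal and 2697 (18.9%) higher in basal cells. Counts of called list members below are to be read beside these shares. Within the 12722 genes above 1 CPM in 2 of the 4 epithelial libraries, 5074 (39.9%) were called, 19.9% of all being higher in luminal cells. The count was 6310 without luminal replicate 1, 3966 without luminal replicate 2, 2818 without basal replicate 1 and 2807 without basal replicate 2. The groups of 2 libraries did not overlap for 10196 genes (71.5%), and an exact two-sided permutation test of 2 against 2 libraries cannot go below p = 0.333, so the calls rest on the model fitted across all genes.

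**Figure D3:**
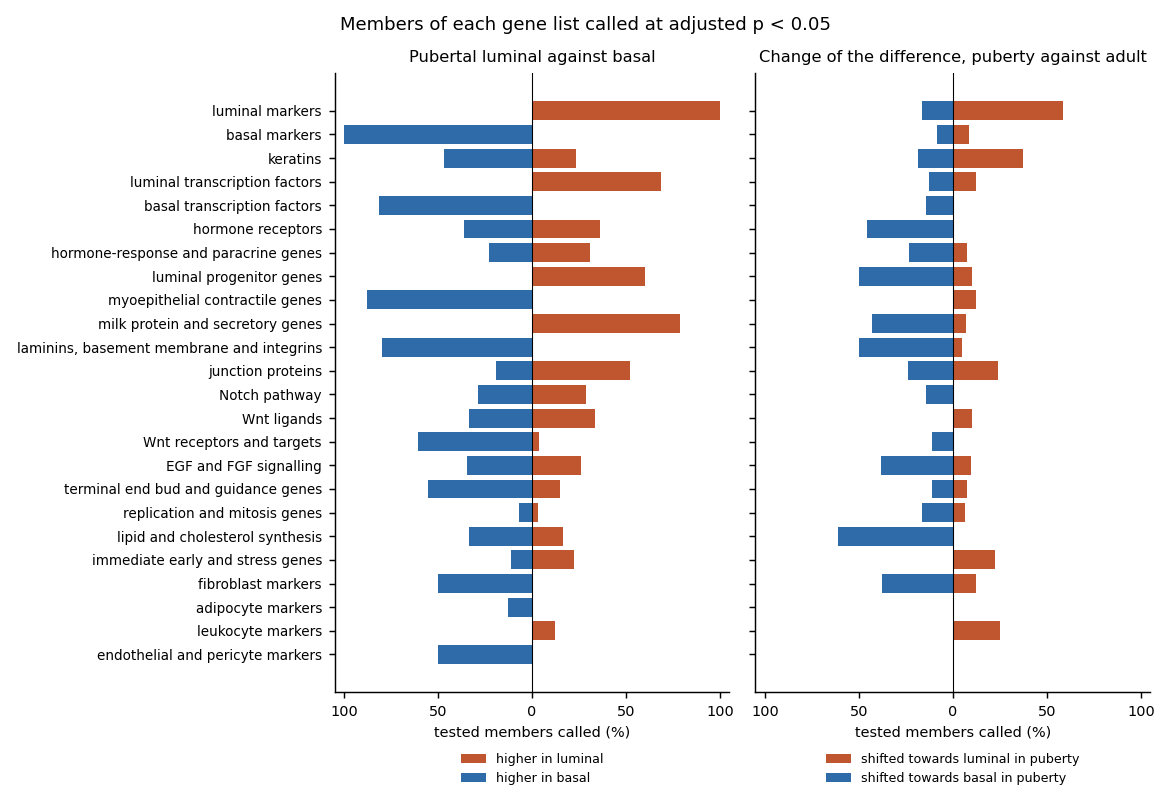
Share of tested members of each gene list that were called (x axis, percent). The left side shows pubertal luminal against basal cells and the right side the change of that difference between puberty and adulthood. Calls towards luminal and towards basal cells are in separate colors. Over all genes 37.2% were called on the left and 23.1% on the right. All members of the luminal and basal marker lists were called on the left, and 3 of 30 replication and mitosis genes.

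The luminal side held simple keratins, claudins and secreted or membrane proteins. Per kilobase of exon the most abundant keratins of luminal cells were Krt8 at 5299.8 RPKM and Krt18 at 5157 RPKM, ahead of Krt19 at 2201 RPKM. Krt8 was also well above 0 in basal cells at 404 RPKM, whereas Krt19 was at 11.8 RPKM there. Krt19 was at 2642 and 5525 CPM in luminal and 24.1 and 19.7 CPM in basal cells, a 186-fold ratio of the means (log2 difference 7.54 ± 0.56, adjusted p = 4.6e-05).

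Of 21 junction proteins, 11 were higher in luminal and 4 higher in basal cells, with a median log2 difference of 1.81. Among the claudins, which seal tight junctions, Cldn3 was at 335 and 463 against 1.27 and 1.19 CPM, and Cldn7 at 369.9 and 585 against 2.44 and 2.01 CPM. Ocln, which encodes the tight junction protein occludin, was at 181 and 215 against 4.89 and 4.9 CPM (log2 difference 5.33 ± 0.28, adjusted p = 1.7e-05). The adherens junction cadherins split between the layers. Cdh1, encoding E-cadherin, was higher in luminal cells at 1921 and 1552 against 469 and 525 CPM, and Cdh3, encoding P-cadherin, higher in basal cells at 308 and 261 against 1.03 and 0.932 CPM. The other members higher in basal cells were the desmosomal genes Dsg3, Dsc3 and Dsp. The cytoplasmic linkers Tjp1 and Jup gave log2 differences of 0.06 and 0.1 and did not pass the test.

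Of 16 luminal transcription factors, 11 were higher in luminal cells and none in basal cells (median log2 difference 3.49). Foxa1, a partner of the estrogen receptor, was at 108 and 60.3 CPM in luminal and 0.611 and 0.258 CPM in basal cells (log2 difference 7.57 ± 0.61, adjusted p = 6.1e-05). Elf5, a regulator of the secretory luminal fate, was at 59.8 and 85.7 against 0.815 and 0.619 CPM. Gata3, which is needed for luminal differentiation, had closer levels, at 139 and 63.1 CPM in luminal and 67.2 and 62.7 CPM in basal cells, and did not pass the test (log2 difference 0.64 ± 0.38, adjusted p = 0.22). Grhl2, Tbx3, Xbp1 and Ovol1 did not pass either.

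Hormone receptors divided between the lineages, with 4 of 11 higher in luminal and 4 higher in basal cells, where 18.3% and 18.9% of all genes were. Pgr, the progesterone receptor, was at 390.3 and 191 CPM in luminal and 9.47 and 10 CPM in basal cells. Esr1, estrogen receptor alpha, was at 94.3 and 76 against 5.96 and 5.57 CPM (log2 difference 3.88 ± 0.31, adjusted p = 6.3e-05). Prlr, the prolactin receptor, showed the widest gap of the receptors, at 502 and 229 against 1.83 and 1.75 CPM (log2 difference 7.67 ± 0.61, adjusted p = 6.1e-05), and Nr3c2, the mineralocorticoid receptor, a narrower one. On the basal side, Oxtr, the oxytocin receptor through which myoepithelial cells contract, was at 1.73 and 0.466 CPM in luminal and 85.7 and 55.4 CPM in basal cells. Igf1r, Nr3c1 (the glucocorticoid receptor) and Ghr (the growth hormone receptor) were also higher in basal cells, by log2 differences of -2.65, -1.58 and -1.01. Vdr and Insr did not pass the test.

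Among 13 tested hormone-response and paracrine genes, 4 were higher in luminal and 3 in basal cells, a count of 7 that was 4 without basal replicate 1. Over all genes 37.2% were called. Areg, the EGF family ligand through which estrogen drives ductal growth, was at 708 and 839 CPM in luminal and 41.4 and 47.8 CPM in basal cells (log2 difference 4.12 ± 0.38, adjusted p = 0.00011). Wnt4, a target of progesterone signaling, was at 31.1 and 32.7 against 3.11 and 2.58 CPM. Tnfsf11, which encodes the progesterone-induced ligand RANKL, had no read in either luminal library and 0.102 and 0.103 CPM in basal cells. Its receptor gene Tnfrsf11a was higher in basal cells at 15.8 and 12.5 against 4.65 and 3.57 CPM, though not without basal replicate 1 (adjusted p = 0.056). Greb1, an estrogen receptor target, was at 3.87 and 2.49 CPM in luminal and 5.65 and 6.81 CPM in basal cells and did not pass (adjusted p = 0.38).

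Most genes of luminal progenitors and of milk were on the luminal side. Of 10 luminal progenitor genes 6 were higher in luminal cells, among them Cd14 at 422 and 613 against 6.77 and 4.85 CPM, Aldh1a3 at 741 and 860 against 48 and 70.8 CPM, and Kit at 62.5 and 28.4 against 3.72 and 2.58 CPM. The integrin genes Itgb3 and Itga2 gave log2 differences of -0.57 and -0.91 and did not pass. Milk protein transcripts were present in these virgin pubertal glands, and 11 of 14 tested milk and secretory genes were higher in luminal cells (median log2 difference 4.29). Csn3, the kappa-casein gene, was at 1743 and 3633 CPM in luminal cells and 146 and 168 CPM in basal cells. Ltf, encoding lactoferrin, was at 623 and 817 against 5.3 and 2.94 CPM (log2 difference 7.45 ± 0.70, adjusted p = 0.00012). Wap, the whey acidic protein gene of late pregnancy and lactation, was low even in luminal cells at 3.99 and 6.52 CPM.

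The genes with the largest luminal differences among those with a mean log2 CPM of at least 4 over the 8 pubertal libraries were Upk3a, Dmbt1, Cxcl15, Fgb, AW112010, Ido1, Itih2, Aqp5, Gpx3, Plac8, Krt4 and Tspan1. Upk3a, a uroplakin gene known from the bladder lining, was at 59.7 and 138 CPM in luminal cells and had 1 read in the 2 basal libraries together, a ratio of 3394 (95% counting interval 609 to 134102). Dmbt1, a mucosal defense gene, had a ratio of 2185 (605 to 18049). Gpx3, a secreted glutathione peroxidase, was at 1072 and 3426 against 4.99 and 3.66 CPM, and Aqp5, a water channel, at 79.6 and 126 against 0.204 and 0.103 CPM.

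The basal side held the keratins of the outer layer. Krt5 was at 2.51 and 8.31 CPM in luminal and 2003 and 2165 CPM in basal cells (log2 difference -8.61 ± 1.11, adjusted p = 0.0006), and Krt17 at 13.4 and 41.6 against 1585 and 1871 CPM. Per kilobase Krt14 led in basal cells at 1886 RPKM, with Krt17 at 1114 and Krt5 at 949 RPKM. Of 17 tested keratins, 4 were higher in luminal and 8 in basal cells. Krt15, a basal keratin of stratified epithelia, was closer between the lineages at 32.3 and 67.5 against 279 and 294 CPM. Krt6a, a keratin linked to terminal end buds, was at 164 and 342 CPM in luminal and 55.6 and 117 CPM in basal cells and did not pass the test.

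Of 16 basal transcription factors 13 were higher in basal cells and none in luminal cells (median log2 difference -4.13). Trp63, encoding p63, the master regulator of basal epithelium, was at 2.76 and 1.71 CPM in luminal and 433 and 349 CPM in basal cells. Snai2, encoding Slug, was at 74.1 and 62.8 CPM in basal cells against 2 reads in luminal cells, a ratio of 1273 (352 to 10521). Lbh was at 3.21 and 2.17 against 73.8 and 74.6 CPM and Id4 at 0.288 and 0.0777 against 39.5 and 32.9 CPM. Sox10 and Sox9 were read at sizeable levels in both lineages, Sox10 at 66.5 and 46.5 against 97.1 and 70 CPM and Sox9 at 117 and 71.4 against 42.8 and 49.1 CPM, and neither passed the test.

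Smooth muscle genes were strong in pubertal basal cells, with 14 of 16 myoepithelial contractile genes higher there and none higher in luminal cells (median log2 difference -5.08). Acta2, smooth muscle actin, was at 4292 and 4777 CPM in basal and 2.92 and 4.27 CPM in luminal cells (log2 difference -10.31 ± 0.49, adjusted p = 1.7e-05). Myh11, smooth muscle myosin, was at 983 and 915 against 0.741 and 0.233 CPM, and Cnn1, calponin, at 363 and 379 against 0.494 and 0.777 CPM. Myl6, a light chain that most cells express, and Des, the desmin gene of muscle, did not pass. Myocd, the coactivator that drives smooth muscle genes, was low at 2.39 and 1.19 CPM in basal cells and had no read in luminal cells, at least 10-fold higher in basal cells when luminal cells are set to the floor of 3 counts per library.

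Basement membrane genes lay mostly on the basal side. Of 20 laminin, collagen IV, nidogen and integrin genes 16 were higher in basal and none in luminal cells (median log2 difference -2.86). The collagen IV chains Col4a1 and Col4a2, which form the network of every basement membrane, are neighbors that are read in opposite directions. Col4a1 lies on the minus strand of chr8 at 11198423 to 11312826 and Col4a2 on the plus strand at 11312805 to 11449287. Their promoter windows, from 250 bases before to 50 after the start in RefSeq (GRCm38.p6), are printed because the windows share 78 bases. Whether the shared stretch bears on the levels of the genes was not tested. Capitals mark the shared stretch, chr8:11312777-11312854, which appears in the second sequence as the reverse complement of the first.
Col4a1 promoter, chr8:11312777-11313076, minus strand: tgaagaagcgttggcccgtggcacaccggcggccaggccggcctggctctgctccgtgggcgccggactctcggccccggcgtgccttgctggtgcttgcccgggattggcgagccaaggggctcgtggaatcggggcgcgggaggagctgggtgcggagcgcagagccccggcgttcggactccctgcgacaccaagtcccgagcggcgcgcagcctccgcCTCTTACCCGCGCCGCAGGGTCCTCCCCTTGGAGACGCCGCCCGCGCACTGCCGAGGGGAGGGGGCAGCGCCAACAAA
Col4a2 promoter, chr8:11312555-11312854, plus strand: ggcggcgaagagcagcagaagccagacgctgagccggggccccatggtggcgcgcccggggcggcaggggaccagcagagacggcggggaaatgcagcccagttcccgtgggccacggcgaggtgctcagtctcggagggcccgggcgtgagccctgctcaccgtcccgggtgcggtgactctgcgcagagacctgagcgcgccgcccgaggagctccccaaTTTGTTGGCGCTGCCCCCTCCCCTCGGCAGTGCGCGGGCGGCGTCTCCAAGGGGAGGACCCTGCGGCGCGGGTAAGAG

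Col4a1 was at 26 and 21.5 CPM in luminal and 4776 and 4401 CPM in basal cells, and Col4a2 at 12.6 and 10.7 against 2371 and 2093 CPM. Their log2 differences were close, at -7.59 ± 0.69 (adjusted p = 0.00011) and -7.58 ± 0.63 (adjusted p = 7.4e-05). The annotated bodies of the genes overlap by 22 bases, and the libraries were stranded. Lama1, the laminin chain of early epithelium, was at 1.93 and 0.854 against 380.4 and 272 CPM, and Lama3, a chain of laminin-332, at 16.1 and 8.54 against 1084 and 1112 CPM. Col17a1, a hemidesmosomal collagen, was at 0.946 and 0.932 against 853 and 895 CPM. Nid2 had no read in luminal cells and 4.23 and 3.46 CPM in basal cells, at least 21.6-fold higher by the same floor. Lama5, in contrast, was read at 924 and 409.5 CPM in luminal and 313 and 213 CPM in basal cells and did not pass (adjusted p = 0.077), nor did Lamb2, Lama4 and Itgb4.

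Among called genes with a mean log2 CPM of at least 4, the 12 with the largest basal differences were Adamts18, Crispld1, Adam19, Reln, Pde3a, Lrrk2, Scn7a, Myh11, Capn6, Tro, Clmp and Hgf. That mean is over all 8 pubertal libraries, so reads in the stromal and fat libraries help a gene to enter this list. Adamts18, a secreted protease of the extracellular matrix, had no read in luminal cells and 82.8 and 60.7 CPM in basal cells, at least 403-fold higher. Reln, encoding the secreted glycoprotein reelin, was at 603 and 559 against 0.165 and 0.233 CPM (log2 difference -11.52). Hgf, the ligand of the Met receptor, had no luminal read and 13.3 and 10.2 CPM in basal cells, at least 65.9-fold higher.

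Notch genes were called in both layers. The ligand genes Jag1, Jag2 and Dll1 were higher in basal cells: Jag1 at 593 and 524 against 26.7 and 11.1 CPM, Jag2 at 119 and 100.4 against 0.576 and 0.544 CPM, and Dll1 at 71.3 and 64.3 against 1.15 and 1.55 CPM. On the luminal side were the receptor gene Notch3, at 146 and 69.9 against 6.52 and 4.59 CPM, the target genes Hes1 and Nrarp, and Dll4, a ligand gene of low level. Notch1 was at 216 and 102 CPM in luminal and 53 and 40.5 CPM in basal cells and missed the threshold (adjusted p = 0.057). In all, 4 of 14 tested Notch genes were higher in luminal and 4 in basal cells, where 18.3% and 18.9% of all genes were.

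Of 12 tested Wnt ligands, 4 were higher in luminal and 4 in basal cells, where 18.3% and 18.9% of all genes were. Wnt7b had the widest luminal gap, at 136 and 155 against 2.8 and 3.56 CPM (log2 difference 5.51 ± 0.49, adjusted p = 9.9e-05), and Wnt5b was at 85.4 and 134 against 27.3 and 31.5 CPM. Wnt5a was higher in luminal cells at 228 and 169 against 101 and 78.1 CPM, a call lost without basal replicate 1, basal replicate 2 or luminal replicate 1 (adjusted p = 0.087, 0.19 and 0.072). In basal cells Wnt6 was at 12.1 and 8.56 CPM against 1 luminal read (ratio 385, interval 68.7 to 15241), Wnt10a at 9.62 and 7.58 CPM against 2 luminal reads (160.1, 44 to 1327) and Wnt11 at 12.5 and 16 against 2.3 and 4.74 CPM. The fourth was Wnt3, with no luminal read and 1.43 and 1.34 CPM in basal cells.

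Most genes that receive Wnt signals were on the basal side, with 17 of 28 tested receptors and targets higher in basal cells and 1, Fzd10, in luminal cells (median log2 difference -1.71). Fzd7 was at 202 and 159.7 against 30.1 and 19.7 CPM and Lgr4 at 146 and 129 against 19.4 and 15.4 CPM. Axin2, a target gene of the pathway, was low but on the basal side at 5.96 and 6.45 against 0.37 and 0.155 CPM, as was Procr, a marker of basal stem cells, at 104 and 177 against 4.73 and 3.96 CPM. Lgr5 was at 24.2 and 13.7 against 1.73 and 0.854 CPM. The co-receptors Lrp5 and Lrp6 did not pass the test.

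EGF receptors were likewise divided. Egfr was higher in basal cells at 225 and 253 against 61.5 and 43.3 CPM, whereas Erbb3 was higher in luminal cells at 576 and 366 against 23.5 and 28.3 CPM and Erbb2 at 134 and 93.2 against 38.8 and 34.9 CPM. Of the ligands, Areg and Btc were higher in luminal cells and Nrg1, Ereg and Tgfa in basal cells. Nrg1, which encodes the ligand of ERBB3, was at 1.97 and 1.4 CPM in luminal and 341 and 350.5 CPM in basal cells (log2 difference -7.65 ± 0.73, adjusted p = 0.00014). Fgfr2, the receptor needed for ductal branching, was higher in luminal cells at 426 and 326 against 155 and 132 CPM. In all, 6 of 23 tested EGF and FGF genes were higher in luminal and 8 in basal cells, where 18.3% and 18.9% of all genes were.

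Among 27 genes of terminal end buds and guidance, 4 were higher in luminal and 15 in basal cells (median log2 difference -1.55). Ntn1, which encodes netrin-1, was higher in luminal cells at 127 and 100.1 against 14.1 and 9.54 CPM. Slit2 and its receptor gene Robo1 were higher in basal cells, Slit2 at 53.6 and 55.5 against 1.93 and 0.932 CPM and Robo1 at 78.2 and 68 against 21.8 and 9.01 CPM. Bmp7 (77.1 and 56.5 against 0.658 and 1.16 CPM), the matrix protease gene Mmp2 (124 and 165 against 0.288 and 0.388 CPM) and Pthlh (16.8 and 13 against 1.85 and 2.17 CPM) were on the same side. Mmp14, a membrane protease gene that acts on Mmp2, was at 239 and 141 against 205 and 166 CPM and did not pass the test.

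Few replication and mitosis genes differed between the lineages of the growing gland, with 1 of 30 higher in luminal cells (Mcm6) and 2 in basal cells (Bub1 and Ccne2). This share is under the 37.2% of all genes. The count depended on single libraries, with 10 called without luminal replicate 1 and 1 without either basal replicate, and 11 were called when the pool of mice was taken as a block. Mki67, the gene of the Ki-67 antigen of cycling cells, was at 82 and 13.8 CPM in luminal replicates 1 and 2 and 123 and 82.6 CPM in basal cells. Its luminal libraries differed by more than the lineages did, and the difference did not pass (adjusted p = 0.22, or 0.038 with the block). Pcna, a replication clamp, was at 65.2 and 102 against 82.3 and 82.3 CPM.

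Of 18 lipid and cholesterol synthesis genes, 3 were higher in luminal and 6 in basal cells, a count that fell to 3 without either basal replicate and to 5 without luminal replicate 2. Hmgcs1, of cholesterol synthesis, was at 52.9 and 44 CPM in luminal and 121 and 124 CPM in basal cells (log2 difference -1.34 ± 0.24, adjusted p = 0.0034). The desaturase genes went apart, with Scd1 at 309.7 and 238 against 64.8 and 88.2 CPM and Scd2 at 85.4 and 54.2 against 306 and 207 CPM. Scd1 was not called without basal replicate 1 (adjusted p = 0.1) or basal replicate 2 (0.053), and Scd2 without basal replicate 1 or luminal replicate 2 (0.059 each).

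Of 18 immediate early and stress genes 4 were higher in luminal and 2 in basal cells, with 2 called without basal replicate 2 and 10 with the pool as a block or without replicate 2 of the pubertal fat libraries, which share the fit. The share is near the 37.2% of all genes. Fos was at 869 and 399 against 109 and 86.8 CPM, a call lost without basal replicate 2 (adjusted p = 0.061). The heat shock gene Hspa1a was at 136 and 316 against 196 and 397 CPM and was higher in replicate 2 of both lineages.

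The same lineage difference was then compared with that of the adult gland in a joint model of the 20 epithelial libraries, in which the change is the pubertal log2 difference minus the mean of the 4 adult stages. All CPM from here on are on the scale of these 20 libraries. Of 13463 genes, 8010 (59.5%) differed between luminal and basal cells in puberty and 10504 (78.0%) in adults in this model, which has more libraries behind its estimate of spread than the pubertal one. The shares higher in luminal and in basal cells were 30.6% and 28.9% in puberty and 40.2% and 37.8% in adults. A total of 6908 were called at both ages, 6659 of them in the same direction, 1102 in puberty alone and 3596 in adults alone. The adult difference rests on 8 libraries per lineage and the pubertal one on 2, so the counts of the ages cannot be compared. The difference itself changed for 3105 genes (23.1%), 1499 (11.1%) towards luminal and 1606 (11.9%) towards basal cells in puberty. Counts of changed list members below are to be read beside these shares.

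The count of changed differences depended on single pubertal libraries. It was 5954 without luminal replicate 1, 1618 without luminal replicate 2, 1225 without basal replicate 1 and 1473 without basal replicate 2. The change also ran with transcript length (Spearman's rho -0.38 across 12384 genes), as the pubertal luminal replicates did between themselves. With the length term added to the fit, which was chosen after the data were seen, 3017 genes were called, of which 2335 were among the 3105 with the same sign. Of the 3105 genes, 1198 were called without either pubertal luminal replicate in turn, with the length correction and with the pool of mice as a block. A shift shared by both lineages between the sequencing runs cancels in this comparison, whereas a run effect on a single lineage cannot be told apart from age.

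**Figure D4:**
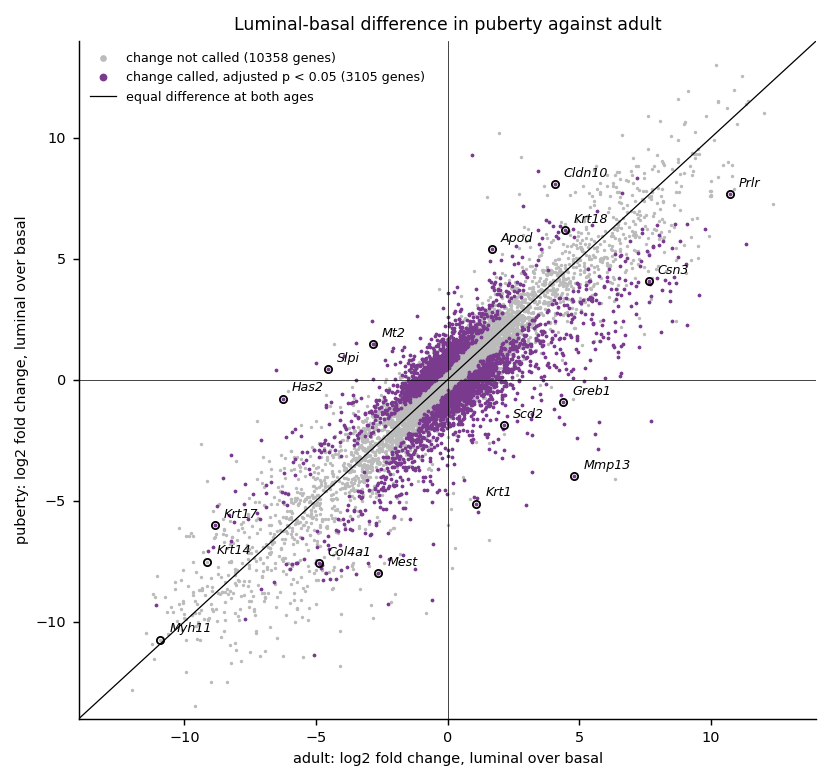
Log2 difference between luminal and basal cells in adults (x axis) and in puberty (y axis) for 13463 genes in the joint fit, with the 3105 genes of changed difference in purple, the others in grey and a line at equal values. Most genes follow the line, and 249 of the purple genes were called in opposite directions at the ages.

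The genes of changed difference were also compared between the ages within each lineage. For 2105 of the 3105 genes (67.8%) basal cells were called between puberty and adulthood and luminal cells were not, and for 402 (12.9%) luminal cells alone were called. In all, 5719 genes (42.5%) differed between the ages in basal cells, 22.6% of all higher and 19.9% lower in puberty, and 2274 (16.9%) in luminal cells, 9.31% higher and 7.58% lower. Without luminal replicate 1 the luminal count was 5627 and without luminal replicate 2 it was 929, and the basal count was 3167 and 3215 when one basal replicate was left out. Without luminal replicate 1 the basal count was 6854, and with the pool of mice as a block 4147 genes were called in basal and 3262 in luminal cells. Of the 3105 genes, 925 had a larger and 964 a smaller gap in puberty with the sign kept, and 1216 had estimates of opposite sign.

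Among the 12 luminal markers a wider gap in puberty was the more frequent change, though several of the calls depended on the fit. Of these markers, 7 shifted towards luminal and 2 towards basal cells. The count of 9 was 4 without luminal replicate 2 or basal replicate 1 and 6 with the length correction. With that correction Krt8, Cldn3 and Cldn7 were not called (adjusted p = 0.093, 0.15 and 0.058). Krt18 differed by 6.16 in puberty and 4.44 in adults on the log2 scale (change 1.73 ± 0.33, adjusted p = 0.0026). Its luminal libraries overlapped between the ages, at 5195 and 11046 CPM against 5951 to 8355 CPM (median 7023) in adults. Its basal libraries did not, at 99.8 and 127 CPM in puberty and 280.2 to 379 CPM (median 337) in adults. Cldn4 was at 26.3 and 45.1 CPM in pubertal and 119.6 to 177 CPM in adult basal cells, and at 2264 and 3009.8 against 3279 to 4812 CPM in luminal cells, so that its libraries were lower in puberty in both lineages (change 1.47 ± 0.28, adjusted p = 0.0025). Trf, the gene of the iron carrier transferrin, was lower in pubertal basal cells as well, with 5.87 and 5.91 CPM in puberty and 14.8 to 33 CPM in adults (change 2.24 ± 0.35, adjusted p = 0.00065).

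Several progenitor and secretory luminal genes shifted the other way. Of 10 luminal progenitor genes 5 shifted towards basal and 1, Lbp, towards luminal cells. In basal cells 5 of the 10 were higher and 4 (Cd14, Itgb3, Lbp and Lcn2) lower in puberty than in adulthood, and of 14 tested milk and secretory genes 9 were higher and 1 lower. Kit was at 4.12 and 2.87 CPM in pubertal basal cells and 0.321 to 1.07 CPM in adult basal cells (change -3.3 ± 0.64, adjusted p = 0.0029), while its luminal libraries overlapped between the ages. Ehf, an epithelial ETS factor, was at 9.88 and 14.1 CPM in pubertal and 0.431 to 2.73 CPM in adult basal cells (change -3.65 ± 0.45, adjusted p = 0.00015). Prom1, Aldh1a3 and Csn3 showed the same order. Csn3 was at 162 and 187 CPM in pubertal and 4.19 to 15 CPM in adult basal cells, against 1989 and 3908 CPM and 1322 to 3091 CPM in luminal cells (change -3.56 ± 0.53, adjusted p = 0.0005). Of 14 tested milk and secretory genes 6 shifted towards basal and 1, Trf, towards luminal cells, a count of 7 that was 3 without basal replicate 1 and 4 without luminal replicate 2.

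Hormone receptor genes that changed shifted towards basal cells. Of 11 hormone receptors 5 shifted towards basal and none towards luminal cells, a count of 2 without either basal replicate or without luminal replicate 2 and of 8 with the pool as a block. In basal cells 4 of the 11 were higher and 1 lower in puberty, and in luminal cells 4 were lower and none higher. Pgr, kept as changed under every alternative, was at 10.5 and 11.1 CPM in pubertal and 1.88 to 3.32 CPM in adult basal cells (change -1.83 ± 0.39, adjusted p = 0.0052), and Prlr at 2.03 and 1.95 against 0.19 to 0.749 CPM (change -3.03 ± 0.52, adjusted p = 0.0013). These levels stayed far under those of luminal cells, 445 and 205 CPM for Pgr and 573 and 247 CPM for Prlr in puberty. Esr1 was at 6.61 and 6.2 CPM in pubertal and 5.14 to 15.5 CPM in adult basal cells, and its change did not pass (-0.51 ± 0.37, adjusted p = 0.32).

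Of 13 tested hormone-response and paracrine genes 3 shifted towards basal and 1 towards luminal cells, where 11.9% and 11.1% of all genes did. Areg was at 45.9 and 53.2 CPM in pubertal and 4.56 to 20.2 CPM in adult basal cells (change -2.61 ± 0.49, adjusted p = 0.0024). Greb1 was the largest shift of the list (change -5.32 ± 0.51, adjusted p = 1.5e-05): it was at 4.41 and 2.67 CPM in pubertal and 8.22 to 36.1 CPM in adult luminal cells, and at 6.27 and 7.58 CPM in pubertal and 0.536 to 1.35 CPM in adult basal cells. The libraries of the ages overlapped in neither lineage. Cxcl12, the gene of a chemokine, had a narrower basal gap in puberty, at 44.3 and 48.6 CPM in pubertal and 98.6 to 215 CPM in adult basal cells (change 3.24 ± 0.48, adjusted p = 0.00052). Tnfsf11 had no read in pubertal luminal cells and 0.0409 to 3.69 CPM (median 0.826) in adult luminal cells, and its change did not pass (adjusted p = 0.083).

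The basement membrane genes that changed, apart from Lamb3, shifted towards basal cells in puberty. Of 20 laminin, basement membrane and integrin genes 10 shifted towards basal and 1, Lamb3, towards luminal cells (median change -0.68, against -0.03 over all genes). The median was -1.12 without luminal replicate 1, -0.42 without luminal replicate 2 and -0.45 with the length correction. Col4a1 was at 5295 and 4897 CPM in pubertal and 995 to 2204 CPM (median 1359) in adult basal cells, a 3.47-fold ratio of the means (change -2.69 ± 0.46, adjusted p = 0.0012). Its divergent neighbor Col4a2 was at 2628 and 2328 against 864 to 1582 CPM (change -1.83 ± 0.41, adjusted p = 0.0067). Lama1 was at 422 and 303 against 42.5 to 199.5 CPM (change -2.94 ± 0.44, adjusted p = 0.00054). For Lamb1 both lineages moved, with 30.2 and 20.3 CPM in pubertal against 53.2 to 109 CPM in adult luminal cells and 739 and 669 against 229 to 459 CPM in basal cells (change -2.83 ± 0.33, adjusted p = 8e-05). The change of Col17a1 did not pass the test (0.16 ± 0.33, adjusted p = 0.75).

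Fn1, a matrix gene of the fibroblast list, was at 330.3 and 326 CPM in pubertal and 7.17 to 50.2 CPM in adult basal cells (change -3.45 ± 0.74, adjusted p = 0.0052). Of the 8 fibroblast markers, Dcn and Thy1 also shifted towards basal cells and Col1a2 towards luminal cells. The call of Thy1 was lost without basal replicate 2 or luminal replicate 2 and that of Col1a2 without luminal replicate 1. Dcn shifted with lower luminal levels in puberty, 27.5 and 21.9 CPM against 117 to 606 CPM in adults. The 8 markers together summed to 29.2 to 44.4 CPM in pubertal luminal and 431 to 437 CPM in pubertal basal cells, and to 138 to 614 CPM in adult luminal and 77.5 to 196 CPM in adult basal cells. Their part in these results was not tested.

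Most contractile genes gave no called change. Acta2 was at 4758 and 5316 CPM in pubertal and 2725 to 6229 CPM in adult basal cells, with log2 differences between luminal and basal cells of -10.33 and -10.1, and Myh11 at 1090.3 and 1018 against 812 to 1544 CPM. Of 16 contractile genes 2 changed, Tpm2 and Des, both towards luminal cells (5 without luminal replicate 1, 1 without basal replicate 2 and 4 without adult diestrus luminal replicate 2). Tpm2, encoding beta-tropomyosin, was at 30.7 and 54.8 CPM in pubertal and 10.2 to 15.8 CPM in adult luminal cells (change 2.5 ± 0.31, adjusted p = 0.00016). Of 12 basal markers 2 changed, Krt17 towards luminal and Oxtr towards basal cells, a count of 4 without luminal replicate 1 or either adult diestrus luminal replicate and of 1 without any other pubertal replicate. Krt17 was at 1757 and 2082 CPM in pubertal and 3656 to 5420.1 CPM in adult basal cells (change 2.83 ± 0.50, adjusted p = 0.0017). Krt14 was at 3051 and 4315 against 5306 to 8421 CPM, and its change did not pass (1.62 ± 0.59, adjusted p = 0.059). Of 14 tested basal transcription factors Lbh and Etv4 changed, both towards basal cells. For Lbh the luminal cells differed between the ages, with 3.66 and 2.34 CPM in puberty and 15.9 to 53 CPM in adults (change -2.98 ± 0.38, adjusted p = 0.00016).

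**Figure D5:**
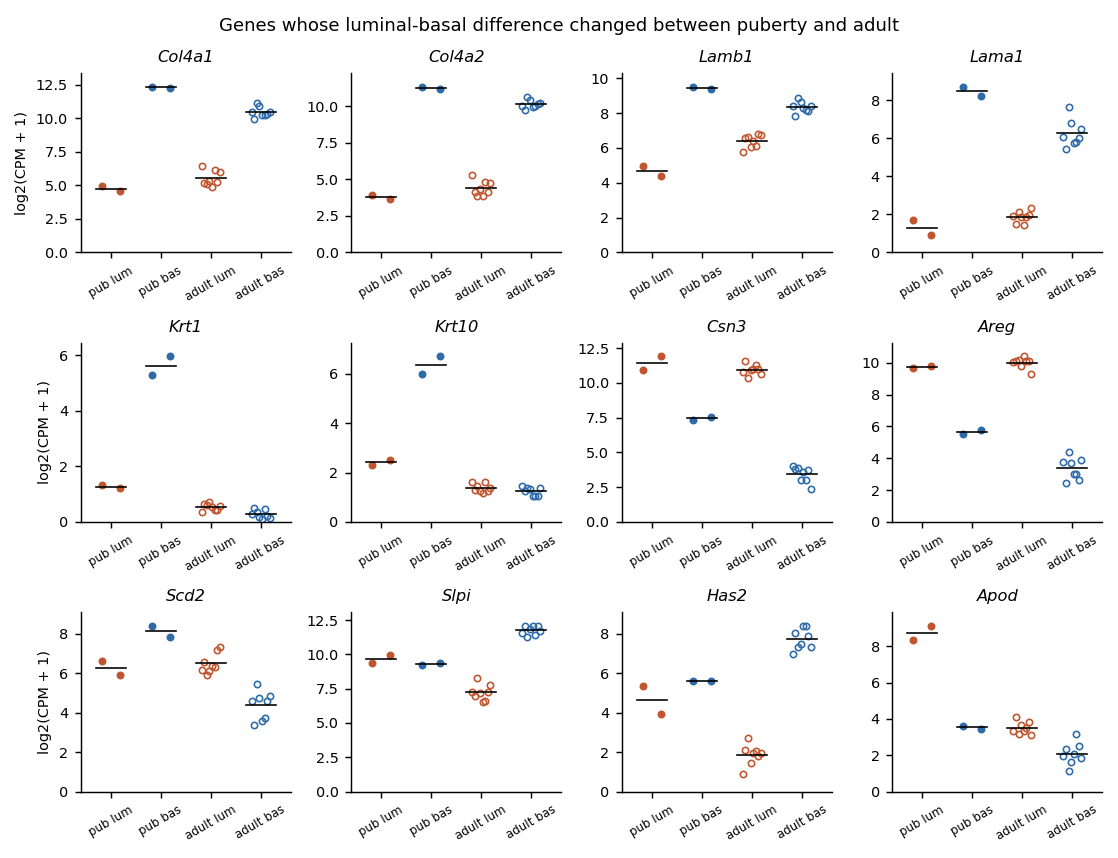
Levels of 12 genes whose lineage difference changed between the ages, as log2(CPM + 1) on the scale of the 20 epithelial libraries (y axis), in luminal (orange) and basal (blue) libraries of puberty (filled) and adulthood (open), each point a library and each line the mean of the log values. Col4a1 is higher in pubertal basal cells (5295 and 4897 CPM) than in adult basal cells (995 to 2204 CPM), and Krt1 and Krt10 are high in the pubertal basal libraries alone.

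Keratins of stratified, cornifying epithelium were read in pubertal basal cells and hardly in adult ones. Krt1, a keratin of the suprabasal epidermis, was at 37.9 and 62 CPM in pubertal basal cells, 1.5 and 1.34 CPM in pubertal luminal cells and 0.0896 to 0.402 CPM in adult basal cells (change -6.21 ± 0.48, adjusted p = 2.8e-06). Its partner Krt10 was at 63.1 and 105 CPM in pubertal and 1.05 to 1.77 CPM in adult basal cells (change -4.5 ± 0.34, adjusted p = 2.8e-06). Sprr1a, of the cornified envelope, was at 35 and 75.3 against 0.221 to 1.62 CPM. All 3 were higher in basal replicate 2 than in basal replicate 1. Other epidermal genes, chosen after their values were seen, had the same order on the pubertal scale, with Krtdap at 6.93 and 15.7 CPM and Dsg1a at 3.11 and 7.07 CPM in basal replicates 1 and 2. The part of skin cells in these values was not tested. Of 16 tested keratins 6 shifted towards luminal and 3 (Krt1, Krt10 and Krt79) towards basal cells, a count of 5 without basal replicate 1.

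Lipid and cholesterol synthesis genes shifted together. Of 18 genes 11 shifted towards basal and none towards luminal cells (median change -1.15). Scd2, a desaturase, was at 339 and 229.9 CPM in pubertal and 9.18 to 42.8 CPM in adult basal cells, while luminal cells held 97.4 and 58.3 CPM in puberty and 59 to 159 CPM in adults. The difference turned from luminal in adults (log2 2.15) to basal in puberty (-1.87), with a change of -4.01 ± 0.42 (adjusted p = 2.9e-05). Scd1 was at 71.8 and 98.1 against 11.5 to 22 CPM in basal cells, and Hmgcs1 at 134 and 138 against 32.2 to 53.9 CPM. Idi1, Lss, Insig1 and Elovl6, whose changes ran from -2.69 to -1.56, kept their calls under every alternative. Adipocyte markers summed to 7.8 to 10.4 CPM in pubertal and 7.57 to 15.5 CPM in adult basal cells.

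Of the EGF family receptor genes, Erbb3, Erbb4 and Egfr shifted towards basal cells in puberty, and the change of Erbb2 did not pass the test (0.08, adjusted p = 0.83). Erbb3 was at 26.1 and 31.5 CPM in pubertal and 4.3 to 9.04 CPM in adult basal cells (change -2.3 ± 0.31, adjusted p = 0.00025), and Erbb4 at 1.69 and 2.64 against 0.0476 to 0.513 CPM. Egfr was lower in pubertal luminal cells, at 70.2 and 46.5 CPM against 88.6 to 136 CPM in adults (change -1.25 ± 0.26, adjusted p = 0.0041). Btc, an EGF family ligand, was at 3.22 and 5.28 CPM in pubertal and 0.269 to 1.42 CPM in adult basal cells. Fgfr3 and Ereg shifted towards luminal cells, Ereg not without basal replicate 1 or luminal replicate 1. Of 21 tested EGF and FGF genes 8 shifted towards basal and 2 towards luminal cells, a count of 6 without basal replicate 1.

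Few Wnt and Notch genes gave a called change. Of 10 tested Wnt ligands 1 changed (2 without luminal replicate 1, without adult diestrus luminal replicate 1 or with the pool as a block, and 3 without adult diestrus basal replicate 1). It was Wnt9a, which was at 1.41 and 1.78 CPM in pubertal and 4.92 to 12.8 CPM in adult basal cells (change 2.2 ± 0.42, adjusted p = 0.0028). The luminal gaps of Wnt7b and Wnt4 did not pass as changed (adjusted p = 0.18 and 0.77). Lgr5 was at 26.9 and 15.2 CPM in pubertal and 59.1 to 98.3 CPM in adult basal cells, and its change missed the threshold (1.85 ± 0.69, adjusted p = 0.064, or 0.045 with the pool as a block). Of 27 Wnt receptors and targets 3 changed (Lgr4, Lgr6 and Tcf7l2), with 7 without luminal replicate 1 and 0 without luminal replicate 2 or basal replicate 1. Of 14 Notch genes Jag2 and Hey1 changed, with 5 called without luminal replicate 1 or with the block, 0 without basal replicate 1 and 1 without basal replicate 2 or luminal replicate 2. Of 27 end bud and guidance genes 5 changed, with 10 without luminal replicate 1, 8 with the block and 3 without any other pubertal replicate. Over all genes the difference changed for 23.1%. Nrp1, a receptor of semaphorins and VEGF, was at 11.8 and 13 CPM in pubertal and 1.71 to 5.93 CPM in adult basal cells (change -2.92 ± 0.65, adjusted p = 0.0065).

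Replication genes were higher in puberty in both layers, 29 of 30 in luminal and 27 of 30 in basal cells, where 9.31% and 22.6% of all genes were called as higher in puberty. Of these 30 genes, 5 shifted towards basal and 2 towards luminal cells, a count of 7 that was 2 without basal replicate 1 or luminal replicate 2, 13 without adult estrus basal replicate 1 and 15 with the pool as a block. A count of 7 is near the 23.1% of all genes whose difference changed. Cenpf, a kinetochore gene, was at 38 and 28.1 CPM in pubertal and 0.0552 to 5.86 CPM in adult basal cells, and at 26.1 and 5.6 against 0.904 to 8.3 CPM in luminal cells (change -3.85 ± 0.82, adjusted p = 0.005). Mki67 was at 136 and 91.9 CPM in pubertal and 0.374 to 30.4 CPM in adult basal cells (change -3.25 ± 0.89, adjusted p = 0.018), a call lost without basal replicate 1 or luminal replicate 2. Mcm7, of the replicative helicase, was the exception in basal cells, at 75.6 and 67.1 CPM in puberty and 98 to 143 CPM in adults (change 1.3 ± 0.25, adjusted p = 0.0028).

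Luminal transcription factors, junction proteins and immediate early genes gave mixed or weak changes. Of 16 luminal transcription factors Elf3 and Stat5a shifted towards luminal and Ehf and Cited1 towards basal cells, with 9 called without luminal replicate 1 and 2 without basal replicate 2. This share is near the 23.1% of all genes whose difference changed. Of 21 junction proteins 5 shifted each way, with 4 or 5 called in all without luminal replicate 2 or either basal replicate. Cldn1, a claudin, was at 22.5 and 35.2 CPM in pubertal and 2.03 to 4.94 CPM in adult basal cells (change -2.66 ± 0.43, adjusted p = 0.00084). Pkp1, a desmosomal plakophilin gene, was at 149 and 112 CPM in pubertal and 34.9 to 81.9 CPM in adult luminal cells, and at 218 and 264 against 407 to 886 CPM in basal cells (change 2.61 ± 0.32, adjusted p = 0.00013). Of 18 immediate early and stress genes 4 shifted towards luminal cells (Junb, Jund, Atf3 and Ier3), with 0 called without basal replicate 1, 1 without basal replicate 2 and 2 without luminal replicate 2, adult metestrus luminal replicate 2 or adult proestrus luminal replicate 2.

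Among called genes with a mean log2 CPM of at least 2, the 15 largest shifts towards luminal cells were Has2, Ankrd1, Slpi, Tmem45a, Mt2, Cldn10, Fst, Npy, Apod, Ramp3, Zbp1, Pamr1, Slc16a3, Medag and Isg15. The calls of Ankrd1, Tmem45a, Npy and Medag were each lost when a single pubertal luminal or basal library was left out. Has2, encoding a hyaluronan synthase, was at 39.9 and 14.5 CPM in pubertal and 0.883 to 5.6 CPM in adult luminal cells, and at 47.4 and 47.4 against 127 to 342 CPM in basal cells (change 5.47 ± 0.64, adjusted p = 9e-05). Slpi, encoding a secreted protease inhibitor, was at 667 and 999 against 90.5 to 304 CPM in luminal cells and 587 and 650.3 against 2475 to 4387 CPM in basal cells (change 4.96 ± 0.43, adjusted p = 6.6e-06). Their log2 differences were -6.26 and -4.54 in adults and -0.79 and 0.43 in puberty. Apod, encoding a lipid-binding apolipoprotein, was at 330 and 563 CPM in pubertal and 7.77 to 16.5 CPM in adult luminal cells (change 3.71 ± 0.48, adjusted p = 0.0002). Fst, encoding the activin antagonist follistatin, was at 95.2 and 101 against 3.96 to 25.5 CPM in luminal cells.

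By the same threshold of a mean log2 CPM of at least 2, the 15 largest shifts towards basal cells were Mmp13, BC100530, Zfp750, Krt1, Card14, Tmem54, Cldn8, Opcml, Ifi202b, Mest, Nup210, Greb1, Fgfbp1, Timd2 and Sprr1a. Called genes under that level, such as Tenm1 (change -8.58) and Nid2 (-6.99), are not in this list. Several of the 15 had next to no reads in adult basal cells, so their fitted changes are not bounds on the fold. The call of Cldn8 was lost without basal replicate 2. Mmp13, a collagenase gene, was at 14.7 and 62 CPM in pubertal and 0 to 0.0952 CPM in adult basal cells. Mest, an imprinted gene, was at 178 and 150.4 CPM in pubertal and 6.43 to 25.2 CPM in adult basal cells, with luminal levels under 5 CPM at both ages (change -5.36 ± 0.67, adjusted p = 0.00016). Zfp750, an epidermal differentiation factor, was at 1.24 and 4.65 against 0 to 0.107 CPM in basal cells and 17.2 and 10.8 against 10.3 to 23.6 CPM in luminal cells. Mmp13 and Zfp750, like Krt1 and Sprr1a, were thus higher in basal replicate 2 than in basal replicate 1. Fitted changes were larger without basal replicate 1 than without basal replicate 2, apart from those of Tmem54, Opcml, Mest and Nup210. The part of skin cells in these shifts was not tested.

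For 249 genes (1.85%) the difference was called in opposite directions at the 2 ages, 124 turned to luminal and 125 to basal cells in puberty. The count was 959 without luminal replicate 1, 134 without luminal replicate 2, and 125 and 138 without basal replicates 1 and 2. With the length correction 233 were called, 143 of them among the 249. The 10 largest were Mmp13, Tenm1, BC100530, Ccl20, Dpp6, Il1f9, Slc16a6, Tnfsf18, Dnase1l3 and Bmpr1b, all luminal in adults and basal in puberty in the joint fit. In the pubertal fit 4 of them (Mmp13, Tenm1, Slc16a6 and Bmpr1b) were called as higher in basal cells, and Tenm1 alone held that call whichever pubertal library was left out. BC100530, Ccl20, Il1f9, Tnfsf18 and Dnase1l3 were not (adjusted p = 0.081, 0.32, 0.11, 0.15 and 0.19), and Dpp6 was not tested there. Bmpr1b, a BMP receptor, was at 3.29 and 1.42 CPM in pubertal and 7.65 to 19.8 CPM in adult luminal cells, and at 18.5 and 18.8 against 1 to 5.03 CPM in basal cells. Slc16a6, a monocarboxylate transporter gene, was at 18.1 and 17.5 CPM in pubertal and 0.269 to 2.36 CPM in adult basal cells. Without basal replicate 1 the changes of Mmp13, BC100530 and Il1f9 were -9.5, -8.86 and -7.49. Without basal replicate 2 they were -7.37, -6.53 and -6.21. Slc16a6 gave -5.61 in both cases. The part of skin cells in the turned genes was not tested.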

How the data were processed

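The deposited tables hold raw read counts per gene, made by the authors from single-end 65 bp reads of stranded polyA libraries aligned to GRCm38 (mm10) with TopHat2 2.1 and Bowtie 1.1.0 and counted with HTSeq. The authors also deposited log2-scaled tables, which equal log2(count × 1e+07 / total + 1) to within 5.3e-14 and were not used. The pubertal table has 24268 IDs, of which 23989 have a symbol, and 23180 are also in the adult table.

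Counts were tested with edgeR 4.0.16 (quasi-likelihood F-test, legacy=TRUE, TMM) in R 4.3.3 on genes whose CPM exceeded 1 in 2 or more of the fitted libraries, with Benjamini-Hochberg adjustment over all genes of a comparison and a threshold of 0.05. The pubertal difference came from the 8 pubertal libraries of 4 cell types, and the change between ages from the interaction in a fit of the 20 epithelial libraries. A log2 difference above 0 is higher in luminal cells, and a change above 0 is a shift towards luminal cells in puberty. The SE of either was derived from the test, as its absolute value divided by the square root of the F statistic. SDs are over 2 pools, and 95% exact intervals and floors of 3 counts per library cover counting error only. RPKM were set on summed exon length. In simulated counts 100 genes were given a log2 change of 1 and 100 a change of 2. The pubertal fit called 1% and 56% of these, and 8 unchanged genes (13853 genes in all). The interaction called 35% and 96%, and 4 unchanged genes (13003 genes in all). The changed genes were drawn from those with a mean CPM above 4, and the simulated replicates did not differ along transcript length as the pubertal luminal libraries did. Recovery with such a difference, or with as many differing genes as were called in the data, was not tested.

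Luminal and basal libraries of a replicate share a pool of mice. Deviations of paired libraries from their group means correlated at 0.209 in puberty and at -0.012 to 0.178 in the adult stages, and the pool as a block is an alternative. The others were DESeq2 1.42.0, RLE factors, no filter, edgeR's newer method, a 4-library fit, each library and each adult stage left out and, chosen after seeing the data, a correction for transcript length. Members and gene lists were chosen with earlier results of these data known. Named are the 12 genes per direction with the largest pubertal differences and the 15 with the largest changes. These had to be called and to reach a mean log2 CPM over the fitted libraries of 4 and 2, respectively. Also named are 10 genes that turned, up to 6 per list by adjusted p and every list member whose difference changed. Predicted genes were left out. Other genes named from the lists are counted members, and Krtdap and Dsg1a were chosen after their values were seen. Promoter windows come from RefSeq.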

Additional observations from a re-analysis of the deposited data

Results flagged for a closer look

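In the interaction test of puberty against adulthood, the difference between luminal and basal cells changed for 14 genes that are set apart here. Those that turned direction were Mmp13 (change -8.8 on the log2 scale), Tenm1 (-8.58), BC100530 (-8.14), Ccl20 (-7.84), Dpp6 (-7.34), Il1f9 (-7.0), Slc16a6 (-5.63), Tnfsf18 (-5.51), Dnase1l3 (-5.2) and Bmpr1b (-5.06). All 10 were higher in luminal cells in adults and higher in basal cells in puberty in the joint fit. The calls of their changes held under every alternative that tested them. Without basal replicate 1, Dnase1l3 and Tnfsf18 fell under the CPM filter and were not tested. In the pubertal fit BC100530, Ccl20, Il1f9, Tnfsf18 and Dnase1l3 were not called between the lineages, Dpp6 was not tested, and Mmp13, Slc16a6 and Bmpr1b each lost that call when a single pubertal library was left out (highest adjusted p 0.17, 0.09 and 0.059). Their adult basal levels were 0 in at least 1 library apart from Slc16a6 and Bmpr1b, so the size of the fitted change is no bound. The part of skin cells in these changes was not tested.

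Krt18 (change 1.73), Col4a1 (-2.69) and Greb1 (-5.32) also kept their calls under every alternative. Mki67 (-3.25) lost its call without basal replicate 1 or luminal replicate 2. With 2 libraries per lineage in puberty, no group was tested for a library that stands apart.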

How the results depend on the processing

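Of the named genes, 181 were called in puberty and 146 of them under every alternative that tested them. Changes between the ages were called for 140, and 85 of these kept the call under every alternative that tested them. None of the called genes reversed. Rbpj, not called as changed (-0.02), was called at 0.59 with the correction for transcript length and 0.58 with the replicate block and the length correction, alternatives chosen after seeing the data. The cause was not tested in any of the cases that follow.

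The count of genes called in puberty was 2807 to 6310 when single libraries were left out, the count of changed differences 1225 to 5954, that of turned differences 125 to 959, that between ages 929 to 5627 in luminal and 3167 to 6860 in basal cells. The replicate block for pools of mice gave 6641 pubertal and 3338 changed calls, removed no call of a named gene and moved no other list count by over 1.5 times than those given here. Pubertal calls in lists under the block were 11 for replication, 10 for immediate early, 2 for adipocyte, 3 for leukocyte and 8 for endothelial genes, and changes were 8 for hormone receptors, 5 for Notch, 2 for Wnt ligands, 8 for end bud and 15 for replication genes. The block in the 4-library fit gave 9 replication, 2 adipocyte, 2 leukocyte and 7 endothelial calls, and the 4-library fit without the block 2 adipocyte and 7 endothelial calls.

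With the length correction, pubertal calls were 8 for replication, 2 for adipocyte and 0 for leukocyte genes, and changes were 4 for contractile, 4 for Notch, 2 for Wnt ligand and 1 for immediate early genes. With the replicate block and the length correction, pubertal calls were 13 for replication, 11 for immediate early, 2 for adipocyte, 2 for leukocyte and 8 for endothelial genes, and changes 8 for hormone-response, 4 for contractile, 4 for Notch, 2 for Wnt ligand, 5 for Wnt receptor, 16 for replication and 7 for fibroblast genes. DESeq2 gave 11 immediate early and 2 leukocyte calls in puberty, and changes of 4 contractile, 4 Notch, 8 end bud, 11 replication and 7 immediate early genes. Without a filter there were 2 adipocyte and 0 leukocyte calls, and changes of 5 Notch, 2 Wnt ligand and 11 replication genes. The adult mean without proestrus gave changes of 1 Notch, 4 replication and 2 immediate early genes, without estrus 2 Wnt ligand and 11 replication genes, without metestrus 1 basal marker and without diestrus 2 immediate early genes.

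Leaving out single libraries gave the following ranges of pubertal list calls: adipocyte 0 to 2, endothelial 2 to 8, fibroblast 2 to 5, hormone-response 4 to 8, immediate early 2 to 10, leukocyte 0 to 2, lipid 3 to 9 and replication 1 to 10. The ranges of changed list members were 6 to 10 for EGF and FGF, 0 to 5 for Notch, 1 to 3 for Wnt ligands, 0 to 7 for Wnt receptors, 1 to 4 for basal markers, 2 to 7 for hormone receptors, 0 to 6 for immediate early genes, 4 to 13 for junctions, 5 to 12 for keratins, 4 to 10 for luminal markers, 2 to 9 for luminal transcription factors, 3 to 8 for milk genes, 1 to 5 for contractile genes, 2 to 13 for replication and 3 to 10 for end bud genes.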
